A study of Mus musculus with 8 samples.

Results

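The 31 genes described here encode the transcription factor NRF2, its inhibitor KEAP1 and the antioxidant enzymes that they govern or work beside: the glutathione and thioredoxin systems, the peroxiredoxins, the superoxide dismutases, the enzymes that supply NADPH and the metallothioneins. They were taken by symbol from a list that was set with earlier results of these data known. All 31 were found among the 56832 rows of the gene table. RNA had been sequenced from microglia, the resident macrophages of the brain, sorted by flow cytometry from young adult male 5xFAD mice. The ethanol group had 4 libraries, from mice injected intraperitoneally with 3 g/kg ethanol as a 20% solution on 5 days a week for 4 weeks, and the saline group had 4 libraries from mice given saline on the same schedule; tissue was taken after 2 weeks of withdrawal. All 8 libraries carry the 5xFAD transgenes, which make mutant human amyloid precursor protein and presenilin under the neuronal Thy1 promoter, so no comparison with mice lacking the transgenes is possible here. Whether separate samples mean separate mice is not stated in the labels, and the p-values therefore cover only the variation among the 8 libraries.

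NRF2 is made continuously and, while KEAP1 holds it, is marked for destruction; oxidants and electrophiles that modify KEAP1's cysteines let NRF2 accumulate and bind antioxidant response elements in the promoters of its target genes. Glutathione, made by glutamate-cysteine ligase and glutathione synthetase, and thioredoxin are the main carriers of reducing power for the enzymes that remove hydrogen peroxide and lipid hydroperoxides, and both are recharged with electrons from NADPH. In microglia these systems meet the superoxide and peroxide made by the cells' own NADPH oxidase, and NRF2 is controlled largely as a protein, which RNA does not measure.

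The antioxidant response element was searched for as TGACNNNGC on both strands in windows of 250 bases before to 50 bases after each start in RefSeq's promoter sequences (assembly GRCm38.p6; the counts were made on GRCm39, and no coordinates were converted). Windows were given for 28 of the 31 genes. The motif stood in 11 of these 28 genes (39.3%), against 13.99% of all 27025 genes with a window, and in 11 of the 37 member windows (29.7%), against 12.4% of all 32851 windows. The 11 genes were Nfe2l2, Srxn1, Gclm, Prdx1, Pgd, Mgst1, Mt2, Me1, Txnrd1, Sod1 and G6pdx. A match is a description of the letters and not a bound site, and a window without a match says nothing about NRF2. The 6 stretches shown carry the motif in the gene for NRF2 itself and in 1 gene each for glutathione synthesis, peroxide removal, thioredoxin recharging, NADPH supply and metal binding; the capitals mark the motif, each is read along the gene's own strand, and a motif beginning with GC is the reverse complement.
Nfe2l2, chr2:75704879-75704913, minus strand, motif from 240 bases upstream: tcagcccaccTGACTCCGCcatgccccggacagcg
Gclm, chr3:122245407-122245447, plus strand, motif from 134 bases upstream: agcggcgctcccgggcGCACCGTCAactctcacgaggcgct
Prdx1, chr4:116685450-116685490, plus strand, motif from 133 bases upstream: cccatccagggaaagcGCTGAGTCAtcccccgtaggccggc
Txnrd1, chr10:82859098-82859138, plus strand, motif from 92 bases upstream: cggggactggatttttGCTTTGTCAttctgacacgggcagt
G6pdx, chrX:74428913-74428953, minus strand, motif from 57 bases upstream: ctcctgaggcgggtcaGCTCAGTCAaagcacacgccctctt
Mt2, chr8:94172523-94172563, plus strand, motif from 79 bases upstream: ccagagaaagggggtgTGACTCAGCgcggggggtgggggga

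The libraries held 14271351 to 17231301 reads assigned to genes. Values are normalized counts, reads scaled by the authors to a common depth, so that 3 reads are worth 2.73 to 3.26 normalized counts in these libraries. The 8 microglial markers took 4.399% to 4.62% of all normalized counts in ethanol libraries and 4.19% to 4.45% in saline libraries (two-sided exact permutation p = 0.0571). The surface markers used for sorting are not stated in the labels. Markers of neutrophils took 0.0139% to 0.0596% in ethanol libraries and 0.0159% to 0.0807% in saline libraries. Markers of monocytes stayed at or under 0.00727%. Astrocyte markers took 0.0423% to 0.0611% in ethanol libraries and 0.0454% to 0.0575% in saline libraries. Among them Slc1a3 averaged 6117 normalized counts and Aqp4 36.6. Oligodendrocyte markers took 0.0183% to 0.0209% in ethanol libraries and 0.0189% to 0.0211% in saline libraries. Border macrophage markers took 0.00516% to 0.00792% in ethanol libraries and 0.00323% to 0.0157% in saline libraries. Lymphocyte markers took 3.21e-05% to 0.000135% in ethanol libraries and 0% to 9.87e-05% in saline libraries: Cd3e, Cd3d and Ms4a1 were at 0 in all libraries, Cd79a had reads in 7 of the 8 and reached 11.9 normalized counts, and Nkg7 reached 12.7. Along the leading principal component, with 20.1% of the variance, the libraries numbered 1 and 2 in both groups lay between -31.4 and -13.9 and those numbered 3 and 4 between 4.58 and 60.7. The labels do not say what the numbers stand for. Since each group has samples of both kinds, this division is not confounded with ethanol. The saline library numbered 3 had the highest share of cell-isolation stress genes, 0.105%, against 0.0572% to 0.0758% in the other 7, and it was also the highest library for 10 of the 29 antioxidant genes tested (34.5%; 13.7% over all tested genes). Whether these shares have a part in any result was not tested, and in bulk RNA fewer cells of a type and less RNA per cell cannot be told apart.

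Divided by exon length, the transcript levels ran from Nfe2l2, at 1904 normalized counts per kb, to Nqo1, at 1.75 per kb. The median of the tested genes was 110.0 per kb, and 22 of the 31 genes lay above it. Prdx1, at 1862 per kb, and Taldo1, at 1668 per kb, followed Nfe2l2, and below them came Sod1, Prdx5, Gpx4, Pgd, Mt1, Gpx1 and Prdx3, all between 1329 and 679 per kb. A middle group from Gclc, at 467 per kb, to Prdx6, at 264 per kb, also held Prdx4, Prdx2, Txn1, Blvrb and G6pdx. Keap1, at 201 per kb, led a lower group with Txn2, Gsr, Txnrd1, Txnrd2, Sod2, Gss, Gclm, Mt2, Mgst1 and Srxn1. Only 3 of the 30 steps in this order were clear of the spread between libraries: from Prdx3 to Gclc, from Prdx6 to Keap1 and from Srxn1, at 20.6 per kb, to Slc7a11, at 4.59 per kb. Lengths are those of GENCODE M21 on GRCm38, matched by symbol.

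**Figure D1:**
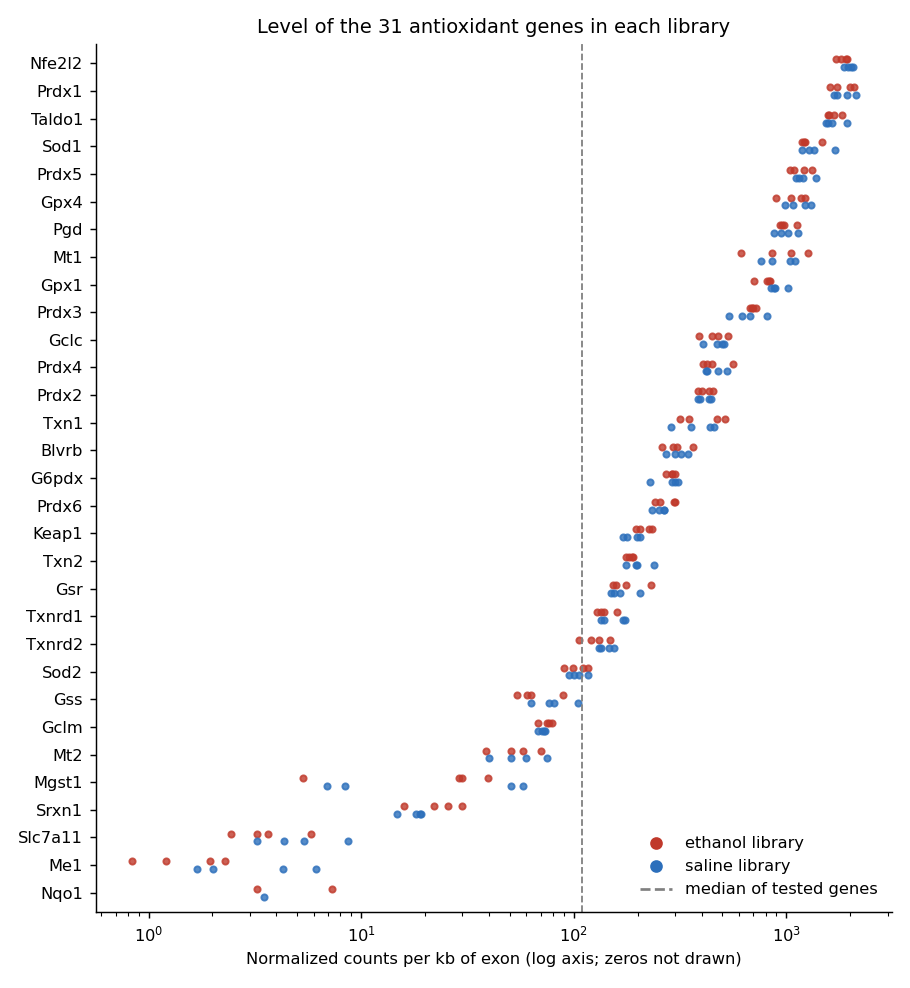
Level of each of the 31 genes in normalized counts per kb of exon (log axis), with a red point for every ethanol library and a blue point for every saline library, the genes ordered by mean level, zeros not drawn, and the median of tested genes as a dashed line. Nfe2l2 leads at 1904 per kb, and Slc7a11, Me1 and Nqo1 stand at the bottom with 4.59, 2.55 and 1.75 per kb.

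Ethanol was compared with saline in the 29 genes whose mean reached 10 normalized counts, within a limma fit of all 14428 genes that did so. No gene of the 31 passed an adjusted p of 0.05 (Benjamini-Hochberg), and 0% of all tested genes did. At an unadjusted p under 0.05 the count was 0 of the 29 in limma, edgeR and DESeq2, against 3.63% of all tested genes in limma. The smallest unadjusted p in the list was 0.0810, for Keap1, and all 29 adjusted p-values in limma were 0.997 or above. The log2 fold change was positive for 12 genes and negative for 17 (positive for 48.8% of all tested genes), its median was -0.01, and the median of all tested genes was also -0.01. It ranged from -0.48 for Slc7a11 to 0.36 for Srxn1.

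These libraries limit how large a change could have been missed. The 95% interval of the fold change lay inside a 1.5-fold change in either direction for 24 of the 29 genes, against 56.3% of all tested genes, and for 24 of the 25 whose mean reached 100 normalized counts, against 82.7% of tested genes at that level. The exception among those 25 was Gss. The SD between libraries within a group had a median of 0.168 on the log2 scale for the 29 genes and 0.248 for all tested genes. In 23 genes the fold change itself was within 1.1-fold of no change. Summed, the 31 genes took 0.194% ± 0.00910 of normalized counts in ethanol libraries and 0.198% ± 0.00735 in saline libraries (SD, n = 4 each; exact permutation p = 0.514).

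**Figure D2:**
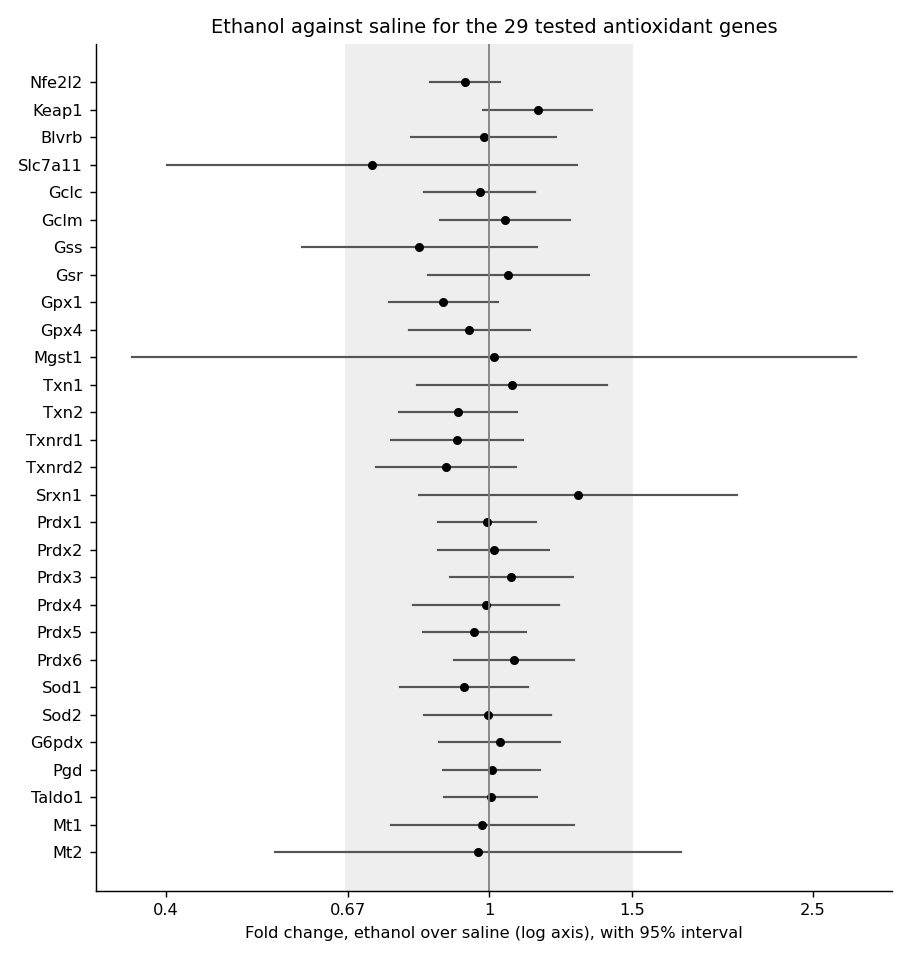
Fold change of the 29 tested genes, ethanol over saline (log axis), as points with 95% limma intervals, in the order of their roles; the shaded band spans a 1.5-fold change either way. Every interval includes 1, and 24 lie inside the band.

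Neither regulator separated the groups. Nfe2l2, which encodes NRF2, had 4771, 4463, 4259 and 4708 normalized counts in ethanol libraries, against 4615, 4971, 5091 and 4824 in saline libraries. Ethanol was the lower group on average, but the highest ethanol library exceeded the lowest saline library. The fold change was 0.933 (95% interval 0.844 to 1.03; limma unadjusted p = 0.160, adjusted p = 0.997). Keap1, the adaptor that presents NRF2 for degradation, had 923, 884, 1047 and 1015 normalized counts in ethanol libraries, against 799.8, 764, 891 and 922 in saline libraries. Ethanol was higher within both sample sets, by 0.21 on the log2 scale in samples 1 and 2 and by 0.19 in samples 3 and 4, while the groups overlapped across the sets. Its fold change was 1.15 (95% interval 0.981 to 1.34, limma unadjusted p = 0.0810, adjusted p = 0.997). With the sample set as a term, limma's unadjusted p was 0.0435 and the adjusted p 0.991. In that fit 682 of 14428 genes had an unadjusted p under 0.05, and Keap1 was the only 1 of the 29 members among them. The sample sets were divided with earlier results of these data known, so Keap1's p in that fit gives no support to a difference. The antisense gene Gm16754 covers 510 of Keap1's 4499 exon bases, and this library type does not mark the strand, so reads of the pair cannot be told apart there; Gm16754 averaged 36.1 normalized counts.

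Of the NRF2 targets described next, Nqo1 and Me1 were nearly absent and Blvrb was not. Nqo1, a quinone reductase, had 0, 0, 5.01 and 11.3 normalized counts in ethanol libraries, against 0, 0, 0 and 5.45 in saline libraries, which are 0, 0, 5 and 11 reads against 0, 0, 0 and 6 reads. All reads came from samples 3 and 4, and the saline library numbered 3 had none. Its mean of 2.72 normalized counts kept it out of the test. Me1, the cytosolic malic enzyme that yields NADPH, had 4.35, 7.02, 3.01 and 8.23 normalized counts in ethanol libraries, against 22.2, 15.4, 6.12 and 7.27 in saline libraries. The ethanol and saline libraries overlapped, and with 3 to 24 reads per library and a mean of 9.20 normalized counts it was not tested either. Blvrb, a biliverdin and flavin reductase, was well covered, with 433 ± 61.4 normalized counts in ethanol libraries and 438 ± 43.7 in saline libraries (SD, n = 4 each) and a fold change of 0.984 (95% interval 0.801 to 1.21).

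Glutathione supply gave no gene past the test. Slc7a11, the cystine importer that feeds glutathione synthesis, had 35.8, 24.1, 57.2 and 31.9 normalized counts in ethanol libraries, against 85.1, 31.8, 53.0 and 42.7 in saline libraries. Its lowest value was in an ethanol library and its highest in a saline library, with overlap between. The fold change was 0.717 with a wide 95% interval of 0.401 to 1.28 (limma unadjusted p = 0.244). Gclc, the catalytic subunit of glutamate-cysteine ligase, had 1815, 1633, 1333 and 1528 normalized counts in ethanol libraries, against 1712, 1745, 1387 and 1623 in saline libraries, and a fold change of 0.973 (95% interval 0.832 to 1.14). Its values followed the sample number and not the treatment: samples 3 and 4 averaged 1468 normalized counts and samples 1 and 2 averaged 1726, with no overlap. Gclm, the modifier subunit, had 443, 427, 381 and 417 normalized counts in ethanol libraries, against 407, 396, 411 and 382 in saline libraries, and a fold change of 1.04 (95% interval 0.869 to 1.26). The lowest of its 8 values was in an ethanol library and so was the highest.

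Gss, glutathione synthetase, averaged 131 ± 30.0 normalized counts in ethanol libraries and 159 ± 33.8 in saline libraries (SD, n = 4 each). It was the least certain of the well-covered genes, with a fold change of 0.820 and a 95% interval of 0.588 to 1.14 (limma unadjusted p = 0.226). Exons of Acss2, Gssos1 and Gssos2 overlap 13, 73 and 117 of its 1963 exon bases from the opposite strand. Gsr, the NADPH-dependent reductase that recycles oxidised glutathione, had 423, 408, 470.3 and 619 normalized counts in ethanol libraries, against 401, 444, 550.5 and 413 in saline libraries. A single library in each group, ethanol 4 and saline 3, was high, and the fold change was 1.05 (95% interval 0.840 to 1.33).

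Gpx1, the main cytosolic glutathione peroxidase, was the only one of the 29 genes whose ethanol and saline values did not overlap, against 2.32% of all tested genes in either direction and 1.2% lower in ethanol. It had 753, 874, 901 and 889 normalized counts in ethanol libraries, against 949, 936, 1099 and 908 in saline libraries. The closest values, 901 in ethanol and 908 in saline, were almost equal, and under quantile normalization the groups overlapped. The fold change was 0.878 (95% interval 0.752 to 1.03; limma unadjusted p = 0.0948, adjusted p = 0.997), and ethanol was lower by a log2 difference of -0.22 in samples 1 and 2 and -0.16 in samples 3 and 4. Gpx4, the peroxidase that reduces lipid hydroperoxides in membranes, had 1339, 1139, 1488 and 1561 normalized counts in ethanol libraries, against 1365, 1251, 1672 and 1555 in saline libraries. The groups overlapped, with a fold change of 0.945 (95% interval 0.797 to 1.12), while samples 3 and 4 were higher than samples 1 and 2 in both groups. A processed copy, Gpx4-ps2, had 34.1 to 66.6 normalized counts, so some reads of the gene may have been counted there.

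Mgst1, a microsomal glutathione transferase and peroxidase, varied more than any other member tested, with a highest value 10.8 times its lowest. It had 9.78, 53.1, 72.2 and 54.5 normalized counts in ethanol libraries, against 105, 15.4, 92.8 and 12.7 in saline libraries. High and low libraries occurred in both groups, and the fold change was 1.01 with a 95% interval of 0.363 to 2.83. Its level moved with the neutrophil marker share across the 8 libraries, a relation looked at after its values were seen and computed on log2 values for 8 lists, of which 7 were cell type markers and 1 cell-isolation stress. For neutrophils Pearson's r was 0.876 (exact permutation p = 0.00826, adjusted over the 8 lists 0.0330) and Spearman's rho was 0.929 (exact permutation p = 0.00223, adjusted 0.0179). Without saline 1 and ethanol 4, the libraries farthest from the median share, r was 0.959 (exact permutation p = 0.00139), and with group and sample-set means removed it was 0.872, beside 0.879 for monocyte and 0.955 for endothelial and mural markers. For monocytes r was 0.845 (exact permutation p = 0.00387, adjusted 0.0310) and rho was 0.881 (exact permutation p = 0.00724, adjusted 0.0290), and without saline 1 and ethanol 1 r was 0.763 (exact permutation p = 0.0847, 6 libraries). Endothelial and mural markers had r = 0.735 (exact permutation p = 0.0499, adjusted 0.132) and rho = 0.571 (exact permutation p = 0.151, adjusted 0.302), and r was 0.772 without saline 2 and ethanol 4 (exact permutation p = 0.0986). The other 6 lists, these included, had adjusted p-values of 0.132 or above by exact permutation. The leading neutrophil genes S100a8 and Ngp reached 3277 and 3233 normalized counts in ethanol 4 and 3320 and 6596 in saline 1. S100a9, Ly6g and Camp were also highest in saline 1. Retnlg and Mmp8 were low in saline 1, at 36.1 and 4.62 normalized counts, against 572 and 323 in ethanol 4. Of the monocyte markers, only Chil3 was highest in saline 1, at 865 normalized counts. Ccr2 was 190 in saline 1 and 291 in ethanol 3, and Plac8 was 10.2 in saline 1 and 119 in ethanol 4. Ly6c2 was 54.6 in saline 1 and 82.6 in saline 3, and Vcan was 0 in saline 1 and 28.5 in saline 3. Among the endothelial and mural markers, Pecam1 and Kdr were the highest, averaging 449 and 149 normalized counts. Flt1 averaged 9.23 and Cldn5 0.127, and Rgs5 and Vtn were at 0 in all libraries. Which cells the endothelial and mural share stands for was not tested. Whether other cells contribute Mgst1 reads was not tested.

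**Figure D3:**
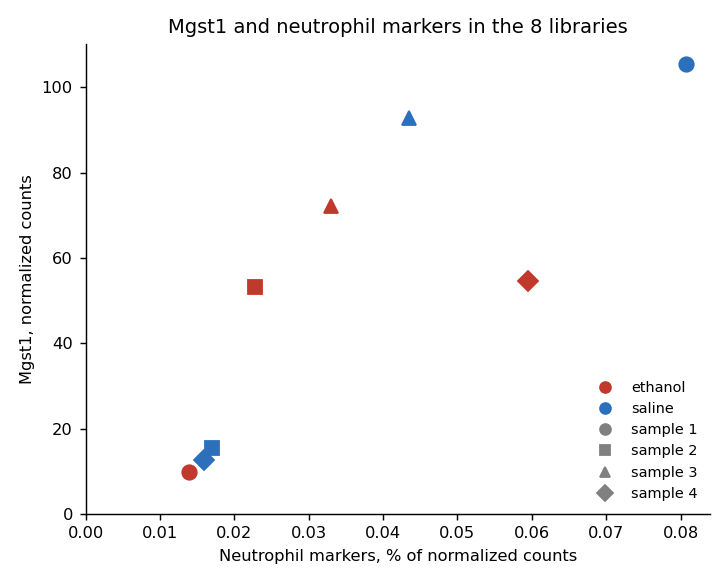
Mgst1 in normalized counts against the share of normalized counts taken by 7 neutrophil marker genes (percent; both axes linear), with a point for each of the 4 ethanol (red) and 4 saline (blue) libraries and its shape giving the sample number. Saline 1 is highest on both axes, at 105 normalized counts and 0.0807%, and ethanol 1 is lowest on both, at 9.78 normalized counts and 0.0139%.

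The thioredoxin system also overlapped between groups throughout. Txn1, the cytosolic thioredoxin, had 332, 366, 495 and 540.2 normalized counts in ethanol libraries, against 376, 302, 479 and 461 in saline libraries. The low values were those of samples 1 and 2 and the high values those of samples 3 and 4 in both groups, and the ethanol fold change was 1.07 (95% interval 0.815 to 1.40). Txn2, the mitochondrial thioredoxin, averaged 717 ± 26.9 normalized counts in ethanol libraries and 788 ± 101 in saline libraries (SD, n = 4 each), a fold change of 0.915 (95% interval 0.775 to 1.08), with the saline library numbered 3 at 927.

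Txnrd1, the cytosolic selenoenzyme that recharges thioredoxin, had 567, 525, 652 and 550.5 normalized counts in ethanol libraries, against 699, 710.3, 568 and 547 in saline libraries. Ethanol was lower in samples 1 and 2, by a log2 difference of -0.37, and higher in samples 3 and 4, by 0.10. Its fold change over all libraries was 0.913 (95% interval 0.757 to 1.101). In samples 1 and 2 alone limma's unadjusted p was 0.0245 and the adjusted p 0.894. That fit had 795 of 14424 genes at an unadjusted p under 0.05, and Txnrd1 was the only 1 of the 29 members among them. The split by number came from these same data, so this p gives no support to a difference. The difference between the sample sets was not tested. Txnrd2, the mitochondrial reductase, averaged 436 ± 61.4 normalized counts in ethanol libraries and 491 ± 36.01 in saline libraries (SD, n = 4 each), a fold change of 0.884 (95% interval 0.725 to 1.08).

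Srxn1, sulfiredoxin, restores peroxiredoxins that have been overoxidised and is a well-known NRF2 target. It had 44.5, 62.2, 84.2 and 72.0 normalized counts in ethanol libraries, against 41.6, 51.1, 53.0 and 53.6 in saline libraries. Ethanol libraries 2 to 4 lay above all saline libraries and ethanol 1 lay among them. The fold change of 1.29 was the largest positive one of the 29 genes, with a 95% interval of 0.819 to 2.02 (limma unadjusted p = 0.255, adjusted p = 0.997).

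**Figure D4:**
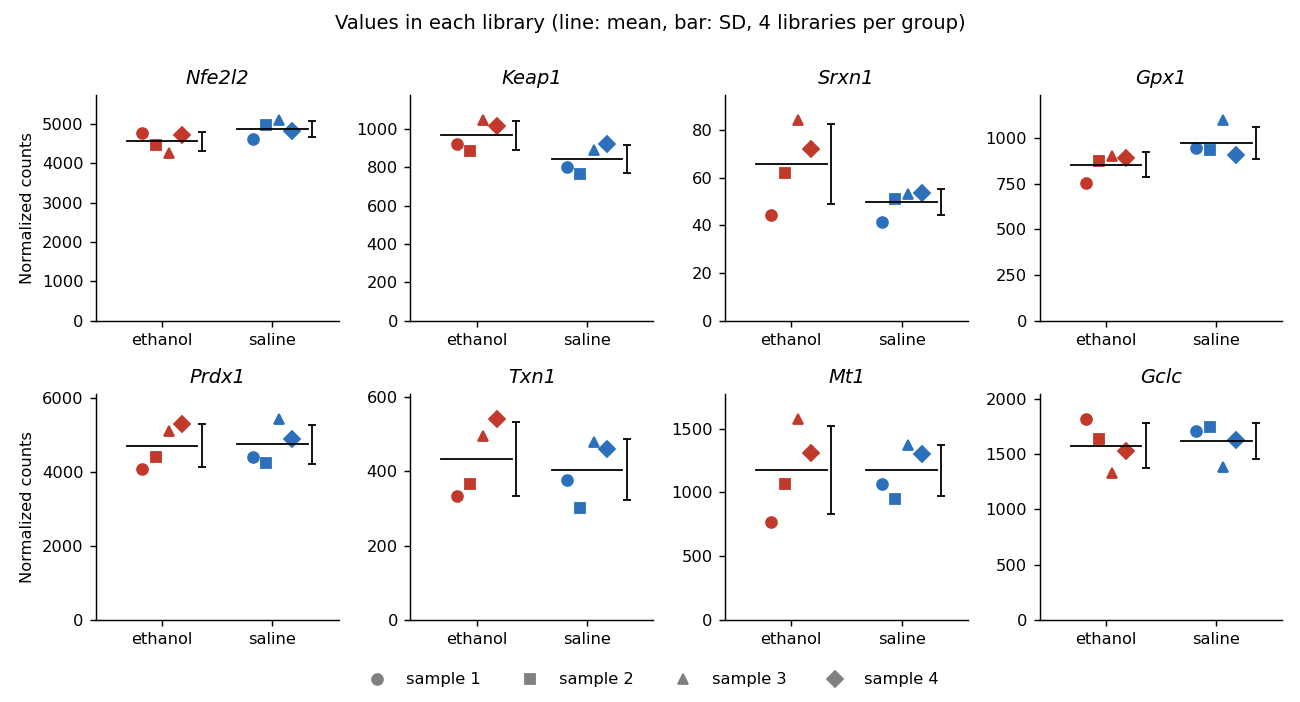
Normalized counts in each library for 8 genes of the list (a panel each, linear axes from 0), with ethanol left of saline, a point per library whose shape gives the sample number, the group mean as a line and the SD as a bar. Gpx1 is the gene without overlap, at 753 to 901 in ethanol and 908 to 1099 in saline; in the other panels the groups overlap.

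The 6 peroxiredoxins, the thiol peroxidases that remove most hydrogen peroxide in the cell, had fold changes between 0.959 and 1.07. Prdx1, the most abundant of them and mainly cytosolic, had 4090 to 5295 normalized counts in ethanol libraries, with a mean of 4722 ± 571, against 4253 to 5434 in saline libraries, with a mean of 4752 ± 532 (SD, n = 4 each). The fold change was 0.993 (95% interval 0.864 to 1.14). Prdx2, its cytosolic relative, had a fold change of 1.01 (95% interval 0.866 to 1.18), and Prdx3, the mitochondrial form, 1.06 (95% interval 0.896 to 1.27). Prdx3 lay closer together in ethanol libraries, at 1029.9 ± 25.3 normalized counts, than in saline libraries, at 978 ± 172 (SD, n = 4 each); the difference in spread was not tested. Prdx4, the form of the endoplasmic reticulum, averaged 456 ± 69.4 normalized counts in ethanol libraries and 458 ± 50.8 in saline libraries. Prdx5, found in several compartments, averaged 1681 ± 183 in ethanol libraries and 1752 ± 168 in saline libraries, and Prdx6, which also acts on phospholipids, averaged 684 ± 72.9 in ethanol libraries and 636 ± 37.4 in saline libraries. Trmt112 covers 409 of the 1447 exon bases of Prdx5 from the opposite strand and averaged 924 normalized counts, and Rnaseh2a covers 154 of the 1854 of Prdx2.

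Neither of the superoxide dismutases, which turn superoxide into hydrogen peroxide, passed the test. Sod1, the copper-zinc enzyme of the cytosol, averaged 819 ± 87.4 normalized counts in ethanol libraries and 885 ± 143 in saline libraries (SD, n = 4 each), a fold change of 0.930 (95% interval 0.776 to 1.12). Sod2, the manganese enzyme of mitochondria, averaged 609.9 ± 70.9 in ethanol libraries and 612 ± 52.8 in saline libraries, a fold change of 0.995 (95% interval 0.831 to 1.19). Both groups reached their highest Sod1 value in the library numbered 3, at 949 normalized counts in ethanol and 1091 in saline.

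The tested genes of NADPH supply had fold changes between 1.00 and 1.03. G6pdx and Pgd, the dehydrogenases of the oxidative pentose phosphate pathway, had fold changes of 1.03 (95% interval 0.868 to 1.22) and 1.01 (95% interval 0.877 to 1.15). Taldo1, transaldolase of the non-oxidative branch, averaged 2277 ± 164 normalized counts in ethanol libraries and 2274 ± 245 in saline libraries (SD, n = 4 each), a fold change of 1.00 (95% interval 0.879 to 1.15).

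The metallothioneins, small cysteine-rich proteins that bind zinc and copper, had no difference beyond their spread. Mt1 had 764, 1064, 1573 and 1308 normalized counts in ethanol libraries, against 1067, 951, 1373 and 1299.9 in saline libraries. Samples 3 and 4 were the high ones in both groups, and the ethanol fold change was 0.980 (95% interval 0.756 to 1.27). Mt2 stood far below Mt1, at 55.3 against 943 normalized counts per kb, and averaged 31.96 ± 7.67 normalized counts in ethanol libraries and 33.1 ± 8.55 in saline libraries (SD, n = 4 each), a fold change of 0.969 (95% interval 0.545 to 1.72). The antisense gene Gm45774 covers 432 of the 588 exon bases of Mt2 and averaged 0.251 normalized counts; how the authors' counting treated such reads is not given in the sources used here.

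The larger regularity in these genes ran along the sample numbers. In 6 of the 29 genes, Gpx4, Txn1, Prdx1, Prdx4, Prdx5 and Mt1, all 4 libraries of samples 3 and 4 lay above all 4 of samples 1 and 2, against 4.54% of all tested genes, and in Gclc all 4 lay below, against 3.49%. The mean log2 difference was positive in 23 of the 29, with a median of 0.16, where all tested genes had -0.01. Mt1 averaged 1389 normalized counts in samples 3 and 4 and 961 in samples 1 and 2, a ratio of 1.45, and Txn1 averaged 494 in samples 3 and 4 and 344 in samples 1 and 2, a ratio of 1.44. Prdx1 averaged 5185 in samples 3 and 4 and 4289 in samples 1 and 2, a ratio of 1.21. The division was known from earlier results of these data, so it carries no p.

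Short transcripts as a whole showed the same division, as found when lengths were looked at after these values. Among tested genes whose mean reached 100 normalized counts, the 1226 with under 1500 exon bases had a median log2 difference of 0.16 and 20.7% of them lay wholly higher in samples 3 and 4; the 10 members of that length had a median of 0.22, and 5 lay wholly higher. The 2893 genes from 1500 to under 3000 bases had a median of 0.01 with 4.91% wholly higher, and the 8 members there had a median of 0.04 with 1 wholly higher. The 5418 genes of 3000 bases or more had a median of -0.06 with 1.83% wholly higher, and none of the 7 members there did. Shares of other RNA classes moved with the same division. Mitochondrially encoded protein genes took 1.17% to 1.34% in samples 3 and 4 and 0.865% to 1.04% in samples 1 and 2. Cytosolic ribosomal protein genes took 1.248% to 1.51% in samples 3 and 4 and 1.08% to 1.17% in samples 1 and 2. Their part in the result was not tested.

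**Figure D5:**
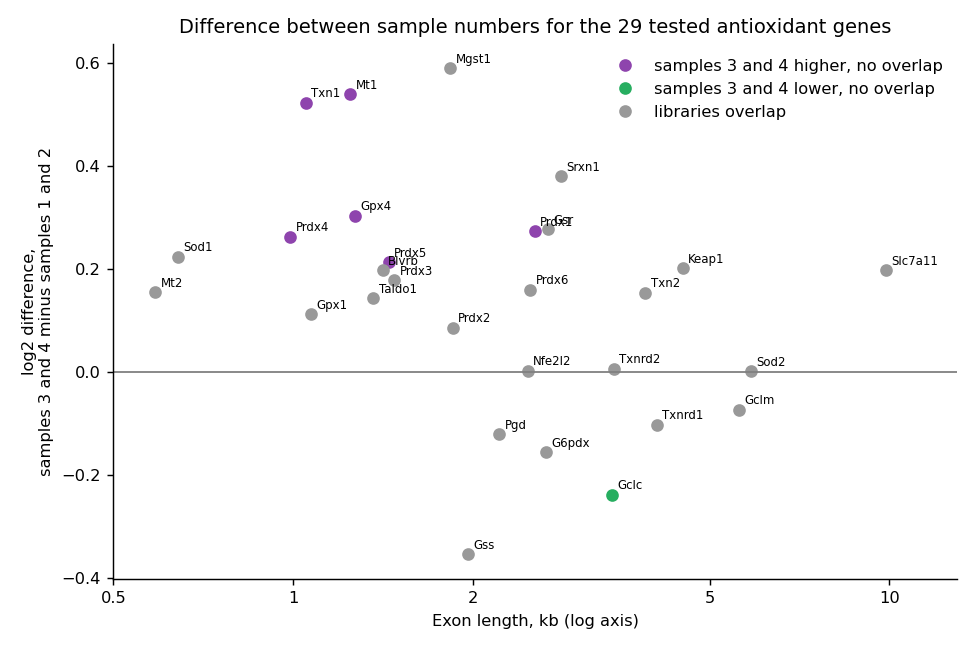
Mean log2 difference of each tested gene of the list, samples 3 and 4 minus samples 1 and 2, against exon length in kb (log axis); purple and green points are genes whose samples 3 and 4 lay wholly above or below samples 1 and 2, and grey points overlap. Txn1 and Mt1 are the highest purple points, at 0.52 and 0.54, and Gclc is the green point, at -0.24.

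Genes that act together were compared in 8 pairs, and none passed after adjustment (exact permutation adjusted p of 0.346 or above for Pearson's r and 0.479 or above for Spearman's rho). The highest Pearson's r was that of G6pdx with Pgd, both dehydrogenases of the pentose phosphate pathway, at r = 0.644 (exact permutation p = 0.0757, n = 8 libraries) and rho = 0.571 (exact permutation p = 0.151), and the r was 0.00942 without the 2 libraries farthest from the median. Mt1 with Mt2 had r = 0.594 (exact permutation p = 0.122) and the highest Spearman's rho, 0.619 (exact permutation p = 0.115), and r was 0.0683 without its 2 farthest libraries and 0.766 with group and sample-set means removed, against 0.498 for G6pdx with Pgd. Prdx1 with Srxn1, which repairs it, had r = 0.592 (exact permutation p = 0.130) and rho = 0.524 (exact permutation p = 0.197), and r was 0.710 without its 2 farthest libraries and 0.244 with the means removed. Txn2 with Prdx3 and Gpx1 with Gpx4 each had r = 0.454 (exact permutation p = 0.246 and 0.255). Gclc with Gclm, subunits of 1 enzyme, had r = 0.444 and rho = 0.452 (exact permutation p = 0.269 and 0.267), and r was 0.267 without its 2 farthest libraries. Txn1 with Txnrd1 and Nfe2l2 with Nqo1 were negative, at r = -0.374 and -0.301 (exact permutation p = 0.335 and 0.464). Over all 406 pairs of tested members the median r was 0.176, against -0.0024 over all pairs of tested genes, and 9.61% of member pairs had an r over 0.7, against 3.19% of all pairs. With group and sample-set means removed the median was 0.0527 for members and -0.0010 for all pairs, and 7.14% of member pairs were over 0.7, against 6.37% of all pairs; the points share libraries and their division by number.

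A further list of 75 genes of the same pathways was taken from textbook knowledge. Of these, 65 were tested, 32 with a positive and 33 with a negative log2 fold change and a median of -0.0017. In limma, edgeR and DESeq2 none passed an adjusted p of 0.05, and 2 of the 65 had a limma unadjusted p under 0.05, Txnip and Idh1, against 3.63% of all tested genes. These 2 were also the ones whose groups did not overlap, against 2.32%. Txnip, the inhibitor of thioredoxin, had 4547, 4058, 4159 and 4257 normalized counts in ethanol libraries, against 5381, 4935, 4649.6 and 4566 in saline libraries. The highest ethanol library, at 4547, lay just below the lowest saline library, at 4566, and the fold change was 0.873 (95% interval 0.784 to 0.971; limma unadjusted p = 0.0157, adjusted p = 0.997). Idh1, the cytosolic isocitrate dehydrogenase that yields NADPH, had 871, 992, 880.5 and 947 normalized counts in ethanol libraries, against 1047, 1036, 1089.8 and 1083 in saline libraries. Its fold change was 0.866 (95% interval 0.754 to 0.994; limma unadjusted p = 0.0424, adjusted p = 0.997). Txnl1, a thioredoxin-like protein, was next among the lower ones, with a fold change of 0.866 (95% interval 0.745 to 1.01).

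The 3 genes with the smallest p among the higher ones were Blvra, a biliverdin reductase, at a fold change of 1.14 (95% interval 0.982 to 1.33), Ggh, which trims the glutamate chains of folates, at 1.16 (95% interval 0.974 to 1.39), and Rpe, of the pentose phosphate pathway, at 1.14 (95% interval 0.913 to 1.41). Hmox1, the heme oxygenase often used as a sign of NRF2 activity, averaged 413 ± 20.9 normalized counts in ethanol libraries and 422 ± 58.1 in saline libraries (SD, n = 4 each), a fold change of 0.987 (95% interval 0.805 to 1.21). Catalase (Cat) averaged 1529.9 ± 228 in ethanol libraries and 1476 ± 69.1 in saline libraries. Bach1, the repressor that competes with NRF2, had a fold change of 1.00 (95% interval 0.843 to 1.19), and Mafg, NRF2's partner on DNA, 1.02 (95% interval 0.858 to 1.21). Sqstm1, the autophagy adaptor that binds KEAP1, had a fold change of 0.951 (95% interval 0.832 to 1.09), and Tkt, transketolase, 1.04 (95% interval 0.923 to 1.18). Fth1, the ferritin heavy chain, averaged 13426 ± 1793 in ethanol libraries and 13229 ± 1258 in saline libraries and was 1 of the 11 genes of this list wholly higher in samples 3 and 4.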

How the data were processed

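SMARTer cDNA libraries made from 500 pg of RNA were sequenced as paired reads, per the labels' protocols. The submitters' processing notes name bcl2fastq 2.19.1, STAR 2.7.9a, Subread featureCounts 2.0.1, Salmon 1.5.2, DESeq2, R 4.2.2 and GRCm39; the sources used here do not give their order or the annotation. The deposited table holds signal values, counts divided by the authors' size factors, and every value above 0 came out as a whole read within 1e-06, so a count test could be run on the recovered reads as an alternative. The table has 56832 rows, 26812 of them above 0 in some library and 1544 of all rows named by Ensembl ID alone.

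The 14428 genes whose mean reached 10 normalized counts were tested with limma 3.58.1 (R 4.3.3, intensity trend, two-sided) on log2(value + 1), which understates fold changes of low genes, with Benjamini-Hochberg adjustment over all tested genes and a threshold of 0.05. The procedure was tested on simulated data. Alternatives were edgeR 4.0.16, DESeq2 1.42.0, other pseudocounts, filters and normalization, terms for sample number, and leaving out each library. The members, the further list and the division of the samples by number were chosen with earlier results of these data known. All 31 members are described; of the further list, the 3 smallest p-values in each direction and 8 set genes are named. Promoter sequences are RefSeq's. Reads carry no molecular identifiers.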

Additional observations from a re-analysis of the deposited data

Results flagged for a closer look

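In 8 of the 116 groups of 4 libraries examined, 1 library lay far from the other 3 (its gap to the nearest, over the whole range, was above Dixon's 95% critical value, which chance gives in about 1 of 20 groups). Among the antioxidant genes, Nqo1 was 5.45 normalized counts in saline 4 and 0 in the other saline libraries, and Sod1 was 949 in ethanol 3, against 758 to 789.8 in the other ethanol libraries. In the further list, Ggh was 925 in ethanol 4, against 722 to 743 in the other ethanol libraries, and Hmox1 was 444 in ethanol 1, against 399 to 406. Border macrophage markers took 0.00792% in ethanol 2 and 0.00516% to 0.00539% in the other ethanol libraries. Erythrocyte markers took 0.000617% in ethanol 3 and at most 4.90e-05% in the other ethanol libraries, and 0.000128% in saline 4 and at most 6.00e-05% in the other saline libraries. Cell-isolation stress genes took 0.105% in saline 3 and 0.0572% to 0.0613% in the other saline libraries.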

How the results depend on the processing

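No member passed an adjusted p of 0.05 in any of the 21 other settings. In those that give intervals, between 22 and 24 members had one inside a 1.5-fold change. The members tested there numbered 29, except 27 at a mean of at least 50 and 31 without a filter. Signs were less stable, since most fold changes lie near 1. Under quantile normalization the log2 fold change was -0.0033 for Mgst1 and 0.0028 for Sod2, and the count of members without overlap was 0. In edgeR it was -0.25 for Mgst1, 0.0012 for Sod2 and 0.011 for Mt1, and in DESeq2 -0.25 for Mgst1 and 0.0058 for Mt1. In samples 1 and 2 alone it was -0.023 for Gsr, -0.79 for Mgst1, -0.063 for Prdx2, -0.00010 for Prdx6, 0.027 for Sod2, -0.050 for G6pdx, -0.0073 for Taldo1, -0.039 for Mafg, -0.050 for Bach1 and -0.057 for Fth1. In samples 3 and 4 alone it was 0.049 for Blvrb, 0.10 for Txnrd1, 0.0098 for Prdx1, -0.087 for Prdx3, 0.10 for Mt1, 0.12 for Mt2, -0.011 for Rpe, 0.059 for Hmox1, -0.10 for Cat and 0.024 for Sqstm1. For Gpx1 with Gpx4, r was -0.198 with group and sample-set means removed. The cause was not tested.

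Without 1 library at a time, the sign turned in 23 of 42 genes followed, 18 of them among the 29 members. The ranges were -0.11 to 0.051 for Blvrb, -0.11 to 0.039 for Gclc, -0.052 to 0.18 for Gsr, -0.15 to 0.0084 for Gpx4, -0.48 to 0.64 for Mgst1, -0.038 to 0.21 for Txn1, -0.068 to 0.056 for Prdx1, -0.020 to 0.056 for Prdx2, -0.0040 to 0.20 for Prdx3, -0.11 to 0.052 for Prdx4, -0.12 to 0.0029 for Prdx5, -0.18 to 0.00071 for Sod1, -0.066 to 0.062 for Sod2, -0.056 to 0.092 for G6pdx, -0.049 to 0.073 for Pgd, -0.041 to 0.077 for Taldo1, -0.18 to 0.16 for Mt1, -0.19 to 0.10 for Mt2, -0.12 to 0.033 for Hmox1, -0.012 to 0.15 for Cat, -0.11 to 0.10 for Mafg, -0.074 to 0.079 for Bach1 and -0.062 to 0.081 for Fth1. The correlation of Txn2 with Prdx3 ranged from -0.296 to 0.836. The members' median ranged from -0.07 to 0.03, and the count without overlap from 1 to 3: 2 without ethanol 1 or saline 3, and 3 without ethanol 2, ethanol 3 or saline 1.

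The labels' numbers did not pair the samples: same-numbered libraries correlated at 0.0138 to 0.0796. A fit with the number as a replicate block called 0 genes, with 645 at an unadjusted p under 0.05 and 524 without the block. Few reads lie behind Nqo1, Me1, Slc7a11, Srxn1, Mt2 and Mgst1, the members with means under 100 normalized counts. Mgst1 also varied widely, from 9 to 114 reads per library.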
